A study of Mus musculus with 6 samples.

Results

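Msrb3, Tshz2, Zbtb7c, Auts2, Fggy, Magi1, Mob3b, Pkdcc and Prkce each collected 4 or more COUP-TFII peaks that were called in female (XX) mesonephroi and shared no base with a peak called in male (XY) mesonephroi. They are 9 of 21896 protein-coding genes. They were chosen on the lists described here: a peak was given to the protein-coding gene whose body was nearest to its centre, within 100 kb, and a gene was taken when at least 4 of its XX peaks overlapped no XY peak. The counts of XX-only peaks, and all that follows from comparing the 2 lists at these genes, are therefore descriptions and were not tested. The rule does not name every such gene: Rbms3 with 5 XX-only peaks, and Rad51b, Rbpms and Vps8 with 4 each, also met it and are not among the 9. Over all protein-coding genes, 13 (0.0594%) had 4 or more XX-only peaks, 38 had exactly 3 (0.174%), and none (0.0%) had 4 or more XY-only peaks.

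Chromatin immunoprecipitation and sequencing of COUP-TFII, the nuclear receptor encoded by Nr2f2, was done on mesonephroi pooled from E14.5 embryos of the CD-1 mouse strain. There were 2 ChIP samples from XX embryos, 2 from XY embryos and 2 of input pooled from both sexes; all are of 1 strain and stage, and the labels name no treatment. The authors deposited 1 list of peaks per sex over its 2 samples, 11175 peaks for XX and 9846 for XY, each peak 300 bp wide with a position in mm10 and no height or score. A value per sample, a spread between replicates and the reads behind a peak are thus unknown here, and a peak missing from a list may have lain below the threshold of its list. Of the XX peaks, 33.0% shared no base with an XY peak, and of the XY peaks 24.0% shared none with an XX peak. Peaks measure binding and not expression, so the tissue could not be checked against marker genes. The sex labels could be: the Y chromosome held 2 XY peaks and 0 XX peaks.

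COUP-TFII binds DNA as a dimer at repeats of the sequence AGGTCA, and acts as a repressor or an activator depending on its partners. In the reproductive tract it marks the mesenchyme around the Wolffian and Müllerian ducts, and in female embryos it is needed for the Wolffian duct to be lost. Such factors bind at promoters and at distant elements, and distant elements often lie in introns or in the gene-poor stretches beside developmental genes. Giving a peak to the nearest gene is a convention that does not show which gene the site acts on.

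The genes belong to several kinds. Tshz2, Zbtb7c and Auts2 act on transcription: Tshz2 encodes a zinc finger and homeodomain protein of the teashirt family, Zbtb7c a zinc finger protein with a BTB domain, and Auts2 a nuclear protein found with Polycomb group proteins. Prkce, Pkdcc and Mob3b belong to kinase signalling, Magi1 encodes a scaffold of cell junctions, and Msrb3 and Fggy encode metabolic enzymes. They lie on 7 chromosomes, and 0 of them on the X chromosome.

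In 2 cases an XX-only peak overlapped the window just before an annotated transcription start, and there bases of the peak can be read (RefSeq promoter sequences, build GRCm38.p6). The 2 stretches are shown because they hold bases inside a peak called in XX and not in XY. These are 63 of the 250 bases of the first stretch and all 250 of the other. No other peak of the 9 genes, of either list, overlapped any of the 32851 windows of the promoter table, which run from 250 bases before a start to 50 after it. The table has no window of Zbtb7c, Auts2 or Prkce, and none of Magi1 at its upper end, so overlap could not be seen there. The first lies inside Magi1, before a start within the gene body (chr6:93912964-93913213, minus strand). The first run of capitals marks the 63 bases inside the peak chr6:93913151-93913450, and the second marks AGGTCA. The other stretch lies inside the body of Prkce, before the start of the long non-coding RNA gene Gm30284 (chr17:86444988-86445237, minus strand), and all of its 250 bases are inside the peak chr17:86444976-86445275, hence in capitals.
Magi1, before an internal start: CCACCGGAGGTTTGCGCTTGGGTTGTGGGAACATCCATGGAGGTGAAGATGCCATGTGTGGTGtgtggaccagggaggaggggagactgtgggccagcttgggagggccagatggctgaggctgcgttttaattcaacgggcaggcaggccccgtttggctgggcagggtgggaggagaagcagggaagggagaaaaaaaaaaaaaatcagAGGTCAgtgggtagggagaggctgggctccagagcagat
Gm30284, inside Prkce: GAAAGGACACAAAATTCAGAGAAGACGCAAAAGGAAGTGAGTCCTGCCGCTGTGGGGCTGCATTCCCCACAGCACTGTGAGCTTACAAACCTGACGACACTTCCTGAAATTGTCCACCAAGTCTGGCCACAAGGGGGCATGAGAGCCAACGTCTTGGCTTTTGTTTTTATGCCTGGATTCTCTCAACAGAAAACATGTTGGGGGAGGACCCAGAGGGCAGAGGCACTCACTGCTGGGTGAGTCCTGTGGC

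The motif AGGTCA was searched on both strands, with TGACCT as its other strand. In the Magi1 stretch it occurred once, at bases 212 to 217, which is 39 to 34 bases before the start and 149 bp from the edge of the peak. The Gm30284 stretch had none. Of all promoter windows, 16.3% held the motif on either strand. Of the 8 windows of the 9 genes, 1 held it, the Magi1 window shown. The table has windows for 6 of the 9 genes (Msrb3, Tshz2, Fggy, Magi1, Mob3b and Pkdcc), and their strand is used below; peaks outside Zbtb7c, Auts2 and Prkce are given by coordinate alone.

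The 9 genes had 51 XX peaks and 19 XY peaks, which made 59 places: 40 XX-only, 11 shared and 8 XY-only. Thus 78.4% of their XX peaks were XX-only (exact 95% interval 64.7 to 88.7), against 32.8% of all other XX peaks (32.0 to 33.7); the first share is fixed by the choice of the genes, and the intervals cover counting error only. Fggy and Mob3b had no XY peak at all. They are the 2 genes of the whole annotation (0.00913%) with 4 or more XX-only peaks and no XY peak. Tshz2 and Prkce had XY peaks only where XX had one too. The other 5 genes had 1 or 2 XY-only peaks each.

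**Figure D1:**
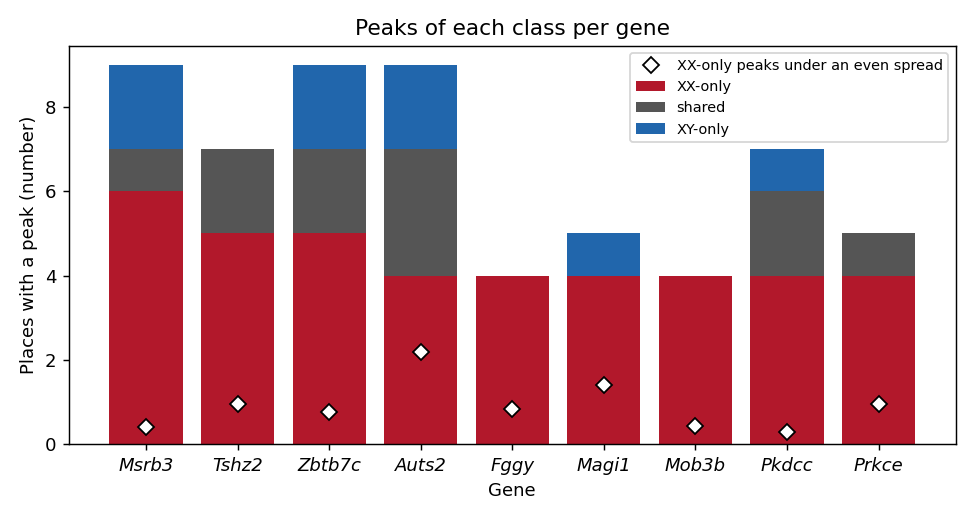
Places with a COUP-TFII peak per gene (vertical axis, number), stacked by class: XX-only (red), shared (grey) and XY-only (blue); diamonds mark the XX-only peaks that an even spread over gene territories would give. XX-only peaks are the largest class at all 9 genes, and Fggy and Mob3b have no other class.

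Among the regulators of transcription, Tshz2 (gene 228911, chr2:169632509-170072751) had 7 XX and 2 XY peaks, and every one lay inside the gene. Its 5 XX-only peaks were at chr2:169702710-169703009, chr2:169862715-169863014, chr2:169873787-169874086, chr2:169941006-169941305 and chr2:170054976-170055275. The first of them lay 70350 bp into the gene from its start. The middle 3 lay between the gene's 2 shared peaks, which were 312.5 kb apart with no XY peak between them. At the shared peaks the XX and XY centres differed by 60 and 5 bp.

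Zbtb7c (gene 207259, chr18:75820178-76148564) had 7 XX and 4 XY peaks. At its lower end a shared peak lay 391 bp inside it in XX coordinates and an XY-only peak 346 bp outside it. No XX-only peak lay within 1 kb of that end. Of its 5 XX-only peaks, 4 lay inside the gene between chr18:76016605-76016904 and chr18:76088335-76088634. For the last of these an XY-only peak had its centre 330 bp away, just too far for the 300 bp peaks to touch. The fifth XX-only peak, chr18:76171600-76171899, lay 23.2 kb beyond the upper end and 1097 bp from the microRNA gene Mir6358.

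Auts2 (gene 319974, chr5:131437333-132543220) is the longest of the 9 at 1106 kb, and all 7 XX and 5 XY peaks given to it lay within its body. With 3 it had the most shared peaks of the 9, and these differed by 18, 45 and 7 bp between the lists. Its XX-only peaks at chr5:131585655-131585954, chr5:132011593-132011892 and chr5:132161304-132161603 were 47.4, 61.8 and 87.9 kb from the nearest XY peak. The fourth, chr5:132542178-132542477, lay 893 bp inside the upper end, and an XY-only peak lay 187 bp inside the same end, 706 bp away. At this gene end both sexes had a peak, at places that did not overlap.

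**Figure D2:**
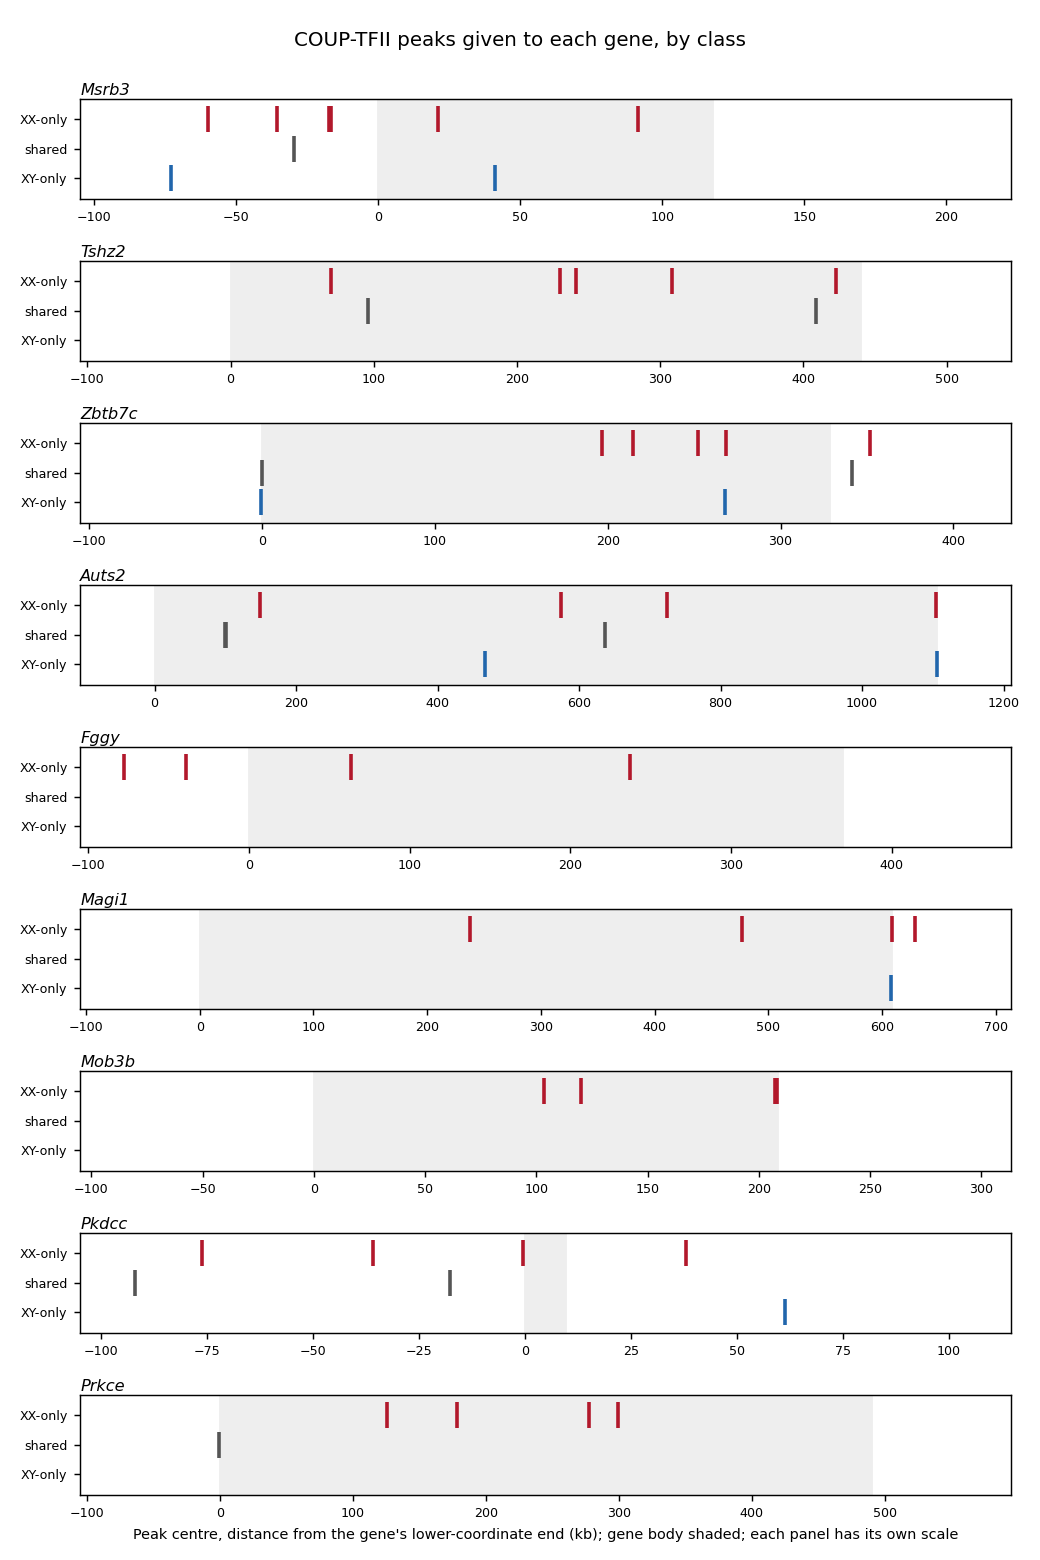
Position of each peak centre (horizontal axis, kb from the gene's lower-coordinate end; body shaded, 1 panel per gene with its own scale), in rows for XX-only (red), shared (grey) and XY-only (blue). Tshz2, Auts2, Mob3b and Prkce have all XX-only peaks inside the body, and Pkdcc has none inside.

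Among the kinase genes, Prkce (gene 18754, chr17:86167785-86657919) encodes a protein kinase C that responds to diacylglycerol without needing calcium. It had 5 XX peaks and 1 XY peak. The only XY peak was shared and lay at the lower end of the gene, 521 bp outside it in XX coordinates. All 4 XX-only peaks, at chr17:86293563-86293862, chr17:86345769-86346068, chr17:86444976-86445275 and chr17:86467180-86467479, lay deep in the body, between 125.9 and 212.8 kb from any end of a protein-coding gene. They followed each other over 173.6 kb, and the peaks of XY or of both lists on either side were 586.1 kb apart. The third of them is the peak at the start of Gm30284 whose sequence is given above.

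Pkdcc (gene 106522, chr17:83215283-83225069) encodes a secreted tyrosine kinase that acts on proteins of the matrix and is needed for the growth of long bones. It is the short gene of the group, 9.79 kb long against 117.9 kb or more for the other 8, and none of its 6 XX and 3 XY peaks lay inside it. Its XX-only peaks lay 76.2 kb, 35.8 kb and 468 bp upstream and 28.1 kb downstream of the gene. For the one at 468 bp, chr17:83214666-83214965, the nearest XY peak was 17.2 kb away. An end of Gm34686, which is not a protein-coding gene, lay nearer to this peak than Pkdcc, at 319 bp. On the upstream side shared peaks lay at 92.0 and 17.6 kb. The shared peak at 17.6 kb lay between XX-only peaks, so the longest stretch of successive XX-only peaks held 2.

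Mob3b (gene 214944, chr4:34949074-35157524) belongs to the MOB family, whose best known members switch on kinases of the Hippo pathway. It had 4 XX peaks and 0 XY peaks. A pair of them, chr4:35156350-35156649 and chr4:35156998-35157297, had centres 648 bp apart and lay 985 and 337 bp inside the gene from its start in the promoter table. From the upper end of the gene body this pair lay 1025 and 377 bp, so only 1 counts below as within 1 kb of a gene end. The rest were at chr4:35052252-35052551 and chr4:35068834-35069133, near the middle of the gene. The nearest XY peak to any of them was 142.2 kb away. The interferon gene Ifnk overlaps Mob3b and had no peak of its own.

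Magi1 (gene 14924, chr6:93675453-94283929) had 4 XX peaks and 1 XY peak, none of them shared. One XX-only peak, chr6:93913151-93913450, lay 337 bp from the nearest internal start in the promoter table and 369.7 kb from any XY peak. Another, chr6:94152441-94152740, lay inside the gene 131.3 kb from its upper end. At that upper end, which is upstream for this minus-strand gene, an XX-only peak lay 403 bp outside and an XY-only peak 958 bp inside, with centres 1361 bp apart. The fourth, chr6:94303774-94304073, was 19994 bp upstream. Magi1 thus resembled Auts2 in having a peak of each sex at the same gene end without overlap.

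Of the enzyme genes, Msrb3 (gene 320183, chr10:120781100-120899011), whose product reduces oxidised methionine in proteins, had the most XX-only peaks of any gene, 6 of its 7 XX peaks. It also had 3 XY peaks, 1 of them shared. Downstream of the gene lay 4 of the XX-only peaks, at 60.0, 35.8, 17.5 and 16.8 kb. The last 2, chr10:120763435-120763734 and chr10:120764176-120764475, were 741 bp apart between centres. The remaining 2, chr10:120801879-120802178 and chr10:120872342-120872641, were in the body. No XX-only peak of Msrb3 lay within 1 kb of a gene end of any kind, and all 6 had an XY peak within 50.4 kb.

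Fggy (gene 75578, chr4:95557480-95926939) encodes a carbohydrate kinase. All 4 of its peaks were XX-only: chr4:95479815-95480114 and chr4:95518131-95518430 lay 77.5 and 39.2 kb upstream, and chr4:95621057-95621356 and chr4:95794779-95795078 lay in the body. They followed each other over 315.0 kb. The nearest peaks of XY or of both lists on either side were 1156.8 kb apart, beside 416.4 kb at Mob3b and 586.1 kb at Prkce.

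The distance from an XX-only peak to the nearest XY peak ran from 0.33 to 369.7 kb and differed between the genes. At Prkce all 4 XX-only peaks were between 126.4 and 286.1 kb from an XY peak, and at Mob3b between 142.2 and 186.0 kb. At Pkdcc they were between 15.7 and 23.4 kb, which does not overlap with either. Over all 40 the median was 51.7 kb, beside 47.5 kb over all XX-only peaks of the genome and 80.1 kb over XX-only peaks at other genes with territories in the same range. A peak of each sex within 1.5 kb was found for 3 of the 40 (7.5%, exact 95% interval 1.57 to 20.4), at Zbtb7c, Auts2 and Magi1, and for 15.4% of all other XX-only peaks (14.3 to 16.6). At the 11 shared peaks of the 9 genes the XX and XY centres were 4 to 96 bp apart, with a median of 40 bp, beside 33.0 bp over all 7483 shared peaks.

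**Figure D3:**
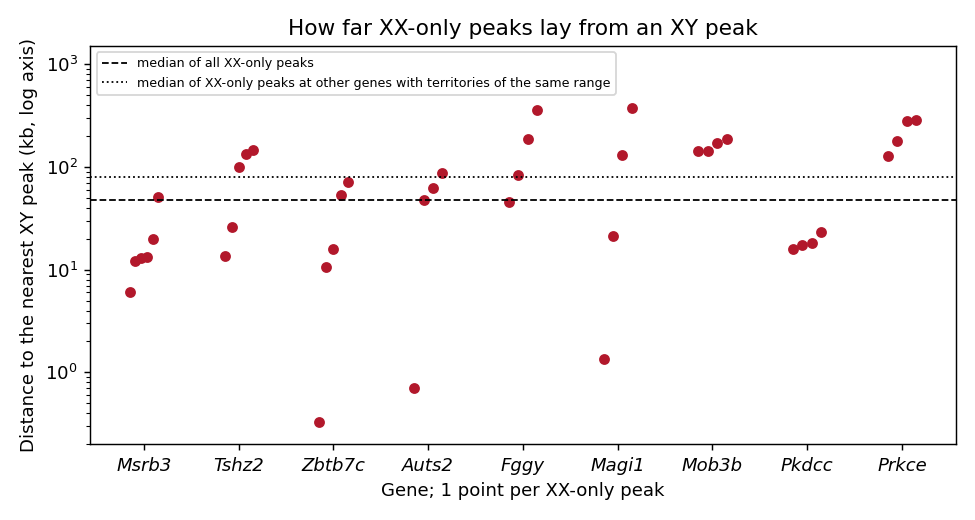
Distance between centres from each of the 40 XX-only peaks to the nearest XY peak (vertical log axis, kb), by gene; lines give medians over all XX-only peaks (dashed, 47.5 kb) and over XX-only peaks of other genes with territories of the same range (dotted, 80.1 kb). All points of Mob3b and Prkce lie above both lines and all points of Pkdcc below both, and 3 points at Zbtb7c, Auts2 and Magi1 lie under 1.5 kb.

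A gene collects peaks in part by the room it has. Its territory, meaning all positions within 100 kb that are nearer to it than to any other protein-coding gene, was 172.7 kb at Pkdcc, 230.1 kb at Msrb3, 244.2 kb at Mob3b, 435.9 kb at Zbtb7c, 489.6 kb at Fggy, 549.4 kb at Prkce, 558.2 kb at Tshz2, 808.5 kb at Magi1 and 1270.8 kb at Auts2. The median of the 9 was 489.6 kb against 45.0 kb over all protein-coding genes. If the 3302 XX-only peaks given to genes were spread evenly over all territories, Auts2 would have 2.2 and Magi1 1.4, while Msrb3 would have 0.398 and Pkdcc 0.299. Counted per 100 kb of territory, XX-only peaks were densest at Msrb3 (2.61), Pkdcc (2.32) and Mob3b (1.64), and sparsest at Magi1 (0.495) and Auts2 (0.315). On the same even spread the XY list would give 2.41 peaks at Fggy and 1.2 at Mob3b, where it had 0, and 2.7 at Prkce, where it had 1. Numbers this small were not tested, and peaks are not spread evenly in either list.

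**Figure D4:**
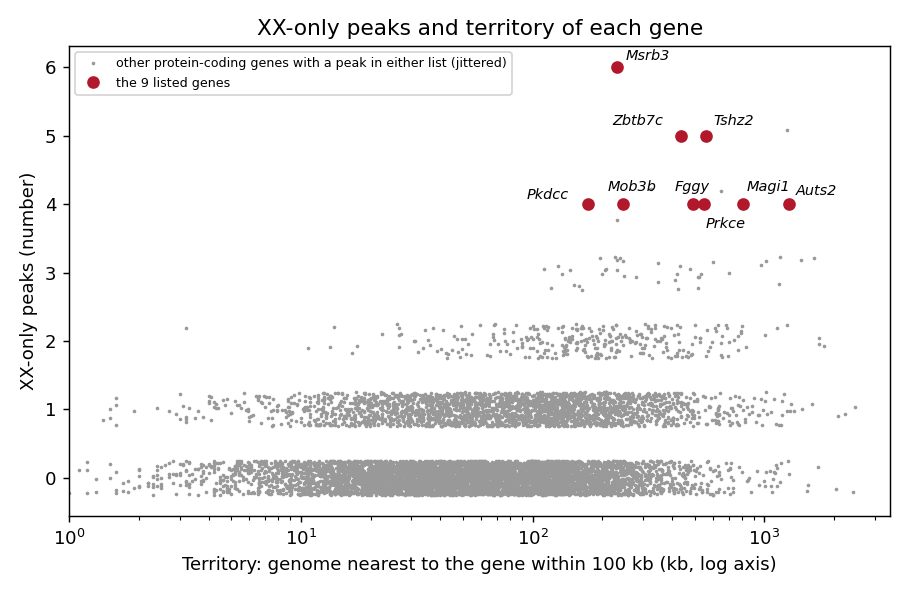
XX-only peaks per gene (vertical axis, number) against territory (horizontal log axis, kb) for every protein-coding gene with a peak in either list (grey, jittered) and for the 9 genes (red). The 9 lie between 172.7 and 1270.8 kb, with Msrb3 highest at 6 peaks.

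Distance from gene ends was not itself part of the rule that chose the genes. The rule asked for at least 4 XX-only peaks at 1 gene, though, and a gene has only 2 ends. It can thus favour peaks away from ends, and genes with much room also have more positions far from an end. The other genes with territories in the same range were not chosen for their number of peaks. They share only the range and were not matched to the 9 by size within it. By territory among all protein-coding genes, Fggy, the median of the 9, ranked 373 and Pkdcc, the smallest, 2816. Most genes in the range thus had smaller territories than Fggy, and the part of territory in the shares below was not tested. The intervals take peaks as independent, and the shares below are descriptions that were not tested. Inside their gene lay 27 of the 40, 67.5% (exact 95% interval 50.9 to 81.4). For other genes with territories in the same range, 66.6% of 1016 XX-only peaks lay inside a protein-coding gene (63.6 to 69.5). Within 1 kb of a protein-coding gene end lay 4 of the 40, at Auts2, Magi1, Mob3b and Pkdcc, which is 10% (2.79 to 23.7). The share was 34.5% over all other XX-only peaks (33.0 to 36.1), and 20.5% at other genes with territories in the same range (18.0 to 23.1), an interval that overlaps that of the 9 genes. Farther than 10 kb from all such ends lay 35 of the 40, 87.5% (73.2 to 95.8). At other genes with territories in the same range the share was 68.9% (66.0 to 71.7). Of the 11 shared peaks at the 9 genes, 2 lay within 1 kb of a protein-coding gene end, at Zbtb7c and Prkce (18.2%, 2.28 to 51.8). Over all shared peaks the share was 61.8% (60.7 to 62.9). The share for shared peaks of other genes with territories in the same range was not computed, so 18.2% is not read as a trait of these genes. Of the 8 XY-only peaks, 3 lay within 1 kb of such an end, at Zbtb7c, Auts2 and Magi1. The share over all XY-only peaks is not given here.

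**Figure D5:**
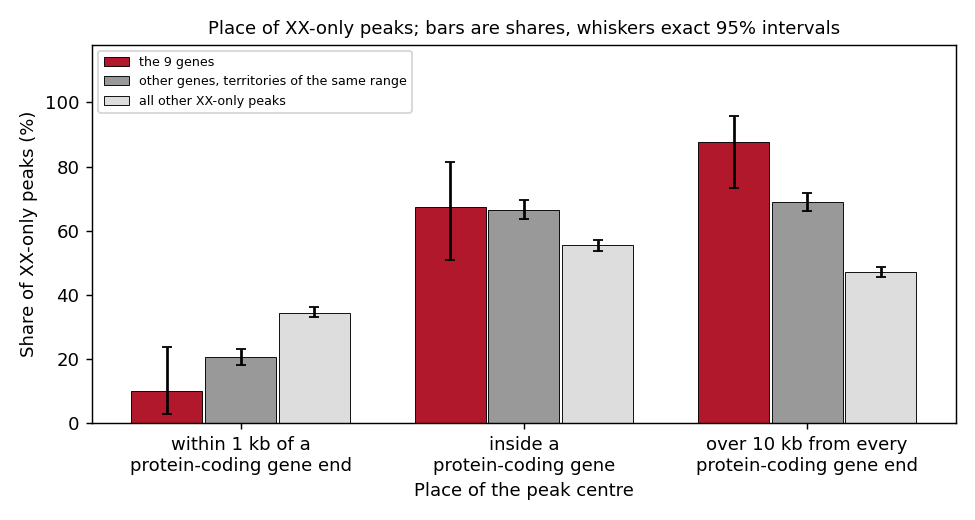
Share of XX-only peaks (vertical axis, %) in 3 kinds of place for the 9 genes (red, 40 peaks), for other genes with territories in the same range (dark grey, 1016 peaks) and for all other XX-only peaks (light grey, 3652 peaks), with exact 95% intervals. The 9 genes have the lowest share near gene ends, 10%, and the highest over 10 kb away, 87.5%.

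In the surroundings of the genes the XX-only share was near that of the whole list. Within 1 Mb on either side, peaks not given to the gene itself numbered 101 in the XX list and 90 in the XY list over the 9 genes, and 36 of these XX peaks were XX-only (35.6%, beside 33.0% of all XX peaks). Around Mob3b 1 of 7 was XX-only and around Fggy 1 of 6. The other extreme was Magi1, where all 4 XX and all 3 XY peaks of the surroundings were called in 1 sex only. Around Pkdcc 7 of 14 were XX-only.

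The neighbours on either side, which were 22.6 to 1556.5 kb from the gene, had at most 3 XX-only peaks. Over all protein-coding genes, 0.0594% had 4 or more XX-only peaks and 13.2% had at least 1, so most genes had none. Msrb3 lay between Lemd3, an inner nuclear membrane gene with 2 shared peaks and no other, and Hmga2, a chromatin protein gene with 2 shared, 2 XX-only and 1 XY-only peak. Auts2 lay between Galnt17, with 4 shared and 1 XX-only peak, and Castor2, with 3 XX-only and 1 XY-only peak. Beside Tshz2, Zfp217 had 1 shared and 1 XX-only peak, and Zfp64 had 1 shared, 1 XX-only and 2 XY-only. Beside Zbtb7c, Smad2, a transducer of TGF-beta signals, had 1 XX-only peak, and Ctif had 1 of each class. Beside Pkdcc, Eml4 had 1 XX-only peak and Slc8a1 had 2 shared and 1 XY-only. The neighbours of Fggy, Magi1, Mob3b and Prkce had no XX-only peak: Jun, Adamts9, Slc25a26, C9orf72 and Srbd1 had 1 XY-only peak each, Epas1, the gene of a hypoxia-inducible factor, had 1 shared peak, and Hook1 and Cga had none.

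Genes related to the 9 were taken from fixed lists, and none of the 37 compared had as many as 4 XX-only peaks. Only 0.0594% of all protein-coding genes had that many, so none among 37 does not set the relatives apart. Of these 37, 8 had an XX-only peak (21.6%, beside 13.2% of all protein-coding genes), 19 had a shared peak (51.4%, beside 28.2%) and 7 had an XY-only peak (18.9%, beside 9.55%). All 3 shares were above those of all genes. The relatives were not matched to all genes by territory, and the part of territory in these shares was not tested. The most XX-only peaks at any of them was 2, at Magi3 and Prkca. Prkca, another protein kinase C gene, had 2 XX peaks and no XY peak, while Prkci had 2 shared peaks, Prkcd 1 shared, Prkcb 1 shared and 1 XY-only, and Prkcq 1 XY-only; Prkch and Prkcz had none. Magi2, with a territory of 1612 kb, had 1 peak XX-only, 1 shared and 2 XY-only. Of 6 Mob genes 0 had an XX-only peak, and Mob1a, Mob1b, Mob3c and Mob4 had 1 shared peak each and Mob2 2 XY-only peaks. Of 9 kinase genes of the secretory pathway related to Pkdcc, 0 had an XX-only peak, and Fam20b had 3 shared peaks, Dipk2a 2, and Dipk1a, Dipk1b and Fjx1 1 each, while Fam20c had 2 XY-only. Msra had 2 shared, 1 XX-only and 1 XY-only peak and Msrb2 2 shared. Tshz3, Fbrs, Gk5 and Shpk had 1 XX-only peak and no XY peak. Fbrsl1, an Auts2 relative, had 2 shared peaks, Gk had 1, and Zbtb7b had 1 shared and 1 XY-only.

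Just outside the threshold, with 3 XX-only peaks, the genes with the smallest territories were Elf2 (1 shared peak), Tnks2 and Rufy1 (1 shared and 1 XY-only each), Lrrc30 (no other) and Castor2 (1 XY-only). Just inside it, Auts2, Fggy, Magi1, Mob3b, Pkdcc and Prkce had 4. By the numbers of XX-only, shared and XY-only peaks, the medians of the 9 genes were 4, 1 and 1. The unlisted genes nearest to these medians (Euclidean distance over the 3 counts of these 2 lists, ties to the smaller territory) were Tnks2, Rufy1, Rbpms, Xxylt1 and Vps8, each at a distance of 1.0.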

How the data were processed

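COUP-TFII ChIP-seq was done on pooled CD-1 mesonephroi at E14.5. The authors deposited 1 peak list per sex, a table of chromosome, start and end in bp with no score; per the submitters' processing notes the build is mm10 and the tools include HOMER 4.10.3, Bowtie 1.2, bedtools 2.24.0, Picard and cutadapt. For the tools' roles, the peak threshold and the way replicates were merged, nothing is given in the sources used here. One protocol label names RUNX1 and fetal ovaries; titles, tissue and antibody labels name COUP-TFII and mesonephroi and were followed. Input and signal tracks were not analysed here.

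Genes were those of RefSeq GRCm38.p6 (49993, of which 21896 protein-coding). Peaks are shared with at least 1 bp in common (7483, the same count as bedtools 2.31.1 gave). Territories were measured in steps of 100 bp. Intervals are exact (Clopper-Pearson, scipy 1.17.1), and coordinates are counted from 1. The functions were tested on simulated peaks. No statistical test was made, since each sex has 1 list. The 9 genes and the family lists were chosen with earlier results of these data known. Named besides the 9 are other genes with 4 or more XX-only peaks, protein-coding neighbours, 5 genes just outside the threshold, the 5 most alike in counts, and family members with a peak; 1 gene of the planned family lists is not reported here. Alternatives covered the definition of a shared peak, the window and the assignment to genes, and the distance from gene ends.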

Additional observations from a re-analysis of the deposited data

How the results depend on the processing

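The 9 genes had 40 XX-only peaks. The count was also 40 with peaks called shared at 50% of each peak or with centres within 100 bp, and 38 with peaks within 1 kb, where Zbtb7c kept 4 and Auts2 3. Windows of 10 and 500 kb gave 29 and 46. It fell to 23 when peaks went to the nearest protein-coding gene end, where Prkce had 0: of the 17 peaks lost, 15 were over 100 kb from an end of their own gene, the nearest, and 2 at Mob3b were nearer to an end of Ifnk. It fell to 26 with genes of all kinds, where Pkdcc had 0, Magi1 1, and Msrb3 and Fggy 2 each. Of the 9 genes, 8 still had 4 or more with peaks within 1 kb called shared, 5 with the 10 kb window, 5 with genes of all kinds and 2 by nearest gene end. The XX-only share of their XX peaks stayed between 74.2% and 81.2%. The share of XX-only peaks at gene ends was between 7.5% and 12.5% under the other definitions of a shared peak and of a gene end; it was not computed under other windows or assignments. No paired analysis was possible because each sex has 1 peak list over its 2 samples; for the same reason no replicate could be left out. A stricter threshold was not run because the lists hold no score.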

Other observations

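Runs of neighbouring peaks can be counted without giving peaks to genes. A run of 4 or more successive XX-only peaks, with no XY or shared peak between them, occurred 67 times in the genome, and a run of 4 or more successive XY-only peaks 9 times. The longest held 9 XX-only peaks and 6 XY-only peaks. At Fggy, Mob3b and Prkce all 4 XX-only peaks formed 1 such run. At Magi1 a run of 4 spanned 837.7 kb, and 2 of its peaks were given to Magi1. At Msrb3, Tshz2 and Zbtb7c the longest run held 3, and at Auts2 and Pkdcc 2. The XX list is the longer of the lists and holds more peaks of its own, and the part of list length in these counts was not tested.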
